A study of Mus musculus with 12 samples.

Results

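Among CD8+ T cells of the mouse spleen sorted as effector cells (Teff), 914 of 53940 fell into the group that the authors' deposited clustering numbers 5. They are 914 of the 100540 cells of the series and were chosen by the deposited cluster number and the name of the Teff library alone. The mice were wild-type C57BL/6 and came in 2 groups. With anti-CD137, clone 3H3 was given at 10 µg to 5 mice. As Ig control, clone HRPN was given at 100 µg to 10 mice, so antibody and dose differed together. Both groups had 2 injections a week for 14 days, and Teff were the cells with high CD44 and without PD1. For each treatment, 1 expression library (5′ ends of transcripts) and 1 library of T cell receptor (TCR) chains were made from pooled Teff cells, and no cell was tied to a single mouse. A difference between treatments therefore has no replicate check. The Teff libraries held 28028 cells and 126261864 unique molecular identifiers (UMIs, each standing for 1 captured RNA molecule) with anti-CD137, and 25912 cells and 115297934 UMIs with the Ig control. Shares carry exact Clopper-Pearson 95% intervals. Differences carry intervals that combine these exact limits by Newcombe's square-and-add rule, called Newcombe intervals here. Both cover only the error of counting cells.

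CD137, also called 4-1BB, is a costimulatory receptor that T cells put on their surface after activation, and clone 3H3 is an antibody that triggers it. Each developing T cell joins V, D and J segments into a TRB chain and V and J segments into a TRA chain, trimming and adding bases at the joints, so that a pair of chains marks a cell and its descendants as 1 clone. A dividing cell copies its DNA in S phase and splits after G2 and M. Seurat, the software named by the submitters, scores S and G2M by how strongly a cell expresses genes of each phase.

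The label says effector, but no values per gene were used here, so neither Cd8a nor any marker of activation could be read, and the cells are called by their cluster number. The receptor table gave the checks it allows. A TRA or TRB chain was assembled in 87.5% of the anti-CD137 cells of cluster 5 (488 of 558, interval 84.4 to 90.1%) and in 92.7% of the Ig control cells (330 of 356, interval 89.5 to 95.2%). The difference was -5.24 percentage points, anti-CD137 minus Ig control, with an interval of -9.16 to -1.09. No member carried the invariant TRA of NKT cells (TRAV11 or TRAV11D with TRAJ18) or of MAIT cells (TRAV1 with TRAJ33), which are lymphocytes with a fixed receptor. These were 0 of 454 cells with a TRA with anti-CD137 and 0 of 307 with the Ig control, which allows shares of up to 0.661% and 0.977%, in that order of treatments. Such chains were as good as absent from the other Teff cells too, with the NKT type in 17 of 20402 and 4 of 17544 cells and the MAIT type in 7 and 2, so the members' 0 does not set them apart.

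Few receptors of cluster 5 were found in more than 1 of its cells, and the 4 that were are shown here because they are the largest clonotypes the cluster held. A clonotype is the pair of nucleotide CDR3s of the TRA and the TRB with most UMIs, the CDR3 being the stretch across the joint that contacts antigen. Sequences run 5′ to 3′ as the deposited receptor table gives them. Lower case at the start matches the V segment and lower case at the end matches the J segment in the GENCODE M21 transcripts of GRCm38, also called mm10. Capitals mark the bases between these matches, such as those of the D segment of a TRB or bases added at the joint. The first 3 pairs come from anti-CD137 cells and the last from Ig control cells.
TRBV19 with TRBJ2-1: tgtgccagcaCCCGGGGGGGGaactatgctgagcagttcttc
TRAV12N-2 with TRAJ9: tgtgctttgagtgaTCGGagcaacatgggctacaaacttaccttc
TRBV13-1 with TRBJ1-4: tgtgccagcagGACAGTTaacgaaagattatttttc
TRAV8D-2 with TRAJ30: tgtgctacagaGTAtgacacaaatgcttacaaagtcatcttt
TRBV12-1 with TRBJ2-1: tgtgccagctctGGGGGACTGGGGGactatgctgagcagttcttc
TRAV14N-2 with TRAJ26: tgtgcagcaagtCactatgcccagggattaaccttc
TRBV16 with TRBJ2-3: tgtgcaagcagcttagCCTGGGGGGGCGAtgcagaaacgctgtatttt
TRAV12-2 with TRAJ57: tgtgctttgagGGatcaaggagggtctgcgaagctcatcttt

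The TRB joints of these 4 held 11, 7, 13 and 13 bases in capitals in the order shown, and the TRA joints held 4, 3, 1 and 2. The TRBV segments lie on mouse chromosome 6, for example TRBV16 at 41151740 to 41152230, and the TRAV segments on chromosome 14, for example TRAV12-2 at 53616315 to 53616914. Each of the 4 pairs was held by 2 cells, both in cluster 5, and by no other cell of the Teff library. Their 2 cell barcodes differed at 10, 15, 13 and 7 positions, so the barcodes of a pair were not single-base variants of each other. The cells of the TRBV19 pair carried 2 TRB and 2 TRA each: both TRBs, TRBV19 and TRBV1, were the same in both cells, TRAV12N-2 was shared, and the other TRA was TRAV5-1 in one cell and TRAV7-3 in the other. The cells of the other 3 pairs had 1 TRA and 1 TRB each. Both cells of the TRBV16 pair were called S phase, with S scores of 0.65 and 0.70 at 16793 and 8812 UMIs, and their TRA rested on 1 UMI in each. The cells of the TRBV13-1 and TRBV12-1 pairs were called G1, at 2880 to 4034 UMIs.

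Cluster 5 was a small share of both Teff libraries and a larger one with anti-CD137. It took 1.99% of Teff cells with anti-CD137 (558 of 28028, interval 1.83 to 2.16%) and 1.37% with the Ig control (356 of 25912, interval 1.24 to 1.52%). The difference was 0.617 percentage points with an interval of 0.398 to 0.836. Over all sorts the cluster held 3173 cells, of which 28.8% were Teff, 70.6% were precursor exhausted cells (Tpex, sorted with PD1 and Slamf6 and without Tim3) and 19 cells came from the exhausted sort (Tex, PD1 and Tim3 without Slamf6). Of the members, 56 with anti-CD137 (10.0%) and 34 with the Ig control (9.55%) had a barcode that also occurred in another library, against 9.58% and 9.78% of all Teff cells. In 0 of these members did the other cell carry the same TRB.

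Members were deep cells. The UMI count of anti-CD137 members ran from 1022 to 20263 with a median of 7047, and that of Ig control members from 970 to 18462 with a median of 6522.5. Clusters 0 and 2, which held most Teff cells and serve as the background of each library, had medians of 4056 with anti-CD137 and 4231 with the Ig control. Tpex cells of cluster 5 had medians of 2479 with anti-CD137 and 8310.5 with the Ig control, so depth was not constant within the cluster. Genes with a UMI followed, with medians of 2291 and 2183 in cluster 5 for anti-CD137 and Ig control, against 1493 and 1540.5 in clusters 0 and 2. The clusters were made by the authors from expression, so these values describe the cluster and do not test it.

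The share of the library that lay in cluster 5 climbed steeply with UMIs. Below 2000 UMIs it was 0.685% with anti-CD137 and 0.135% with the Ig control, and from 4000 up to 5000 UMIs it was 1.05% and 0.873% in the same order. From 10000 up to 13000 UMIs it reached 11.8% with anti-CD137 and 7.20% with the Ig control. At 13000 UMIs and more it was 31.5% with anti-CD137 and 15.0% with the Ig control, the widest gap in points of the 9 bins used. Averaged over 9 bins of UMIs, each given the same weight in both libraries, the difference was 0.613 points.

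**Figure D1:**
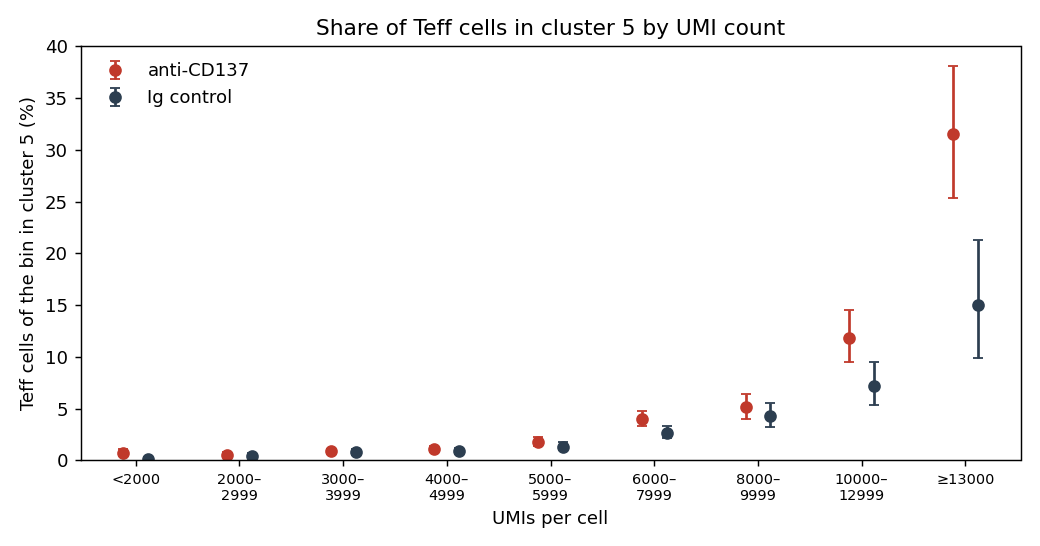
Share of the cells of each UMI bin that lay in cluster 5 (vertical axis, percent) by UMIs per cell (horizontal axis), for the anti-CD137 and the Ig control Teff library. Points are shares and bars are exact 95% intervals for counting error; the share climbs to 31.5% with anti-CD137 and 15.0% with the Ig control in the deepest bin.

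Ribosomal protein transcripts took a smaller part of the RNA in cluster 5 than in clusters 0 and 2. Their median was 32.5% of UMIs with anti-CD137 and 32.6% with the Ig control, against 38.8% and 37.6% in clusters 0 and 2. The order was the same in each of the 9 UMI bins of both libraries. At 13000 UMIs and more, for example, the medians were 31.6% in cluster 5 and 37.2% in clusters 0 and 2 with anti-CD137, and 32.4% and 36.6% with the Ig control. Other sets had lower ribosomal medians than cluster 5. With anti-CD137 and the Ig control they were 26.3% and 27.6% in cluster 1, and 20.4% and 21.1% in cluster 6. Tpex cells of cluster 5 had 25.7% and 27.7%. Mitochondrial transcripts had medians of 1.33% with anti-CD137 and 1.90% with the Ig control in cluster 5, and of 1.68% and 2.29% in clusters 0 and 2. Cluster 1 had 1.47% and 2.04%, and cluster 6 was below cluster 5 at 1.26% and 1.72%.

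A high cell cycle score was far commoner in cluster 5 than in clusters 0 and 2, and a high S score was commoner with anti-CD137. A score above 0.2, a value chosen after the scores were seen, was found for S or G2M in 29.2% of anti-CD137 members (interval 25.5 to 33.2%) and in 19.1% of Ig control members (interval 15.1 to 23.6%). The difference was 10.1 points with an interval of 4.28 to 15.7, and 6.67 points at matched depth, averaged over UMI bins. In clusters 0 and 2 the shares were 0.794% with anti-CD137 and 0.997% with the Ig control. Cluster 1, described at the end, had larger shares than cluster 5 in both libraries. The gap between treatments was wider in the S score than in the G2M score. The S score was above 0.2 in 20.4% of anti-CD137 members and 10.1% of Ig control members. The difference was 10.3 points with an interval of 5.44 to 14.9. A G2M score above 0.2, with or without a high S score, was found in 77 of 558 anti-CD137 members and 35 of 356 Ig control members. Averaged over UMI bins, the G2M difference was 2.55 points. A G2M score above 0.2 without a high S score was found in 8.78% of anti-CD137 members and 8.99% of Ig control members, with an interval of the difference of -4.32 to 3.63 points. Both scores were high in 5.02% with anti-CD137 (28 cells) and 0.843% with the Ig control (3 cells). Within 0.05 of the S score limit lay 19 anti-CD137 cells above it and 23 below it, and 7 Ig control cells above and 7 below.

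**Figure D2:**
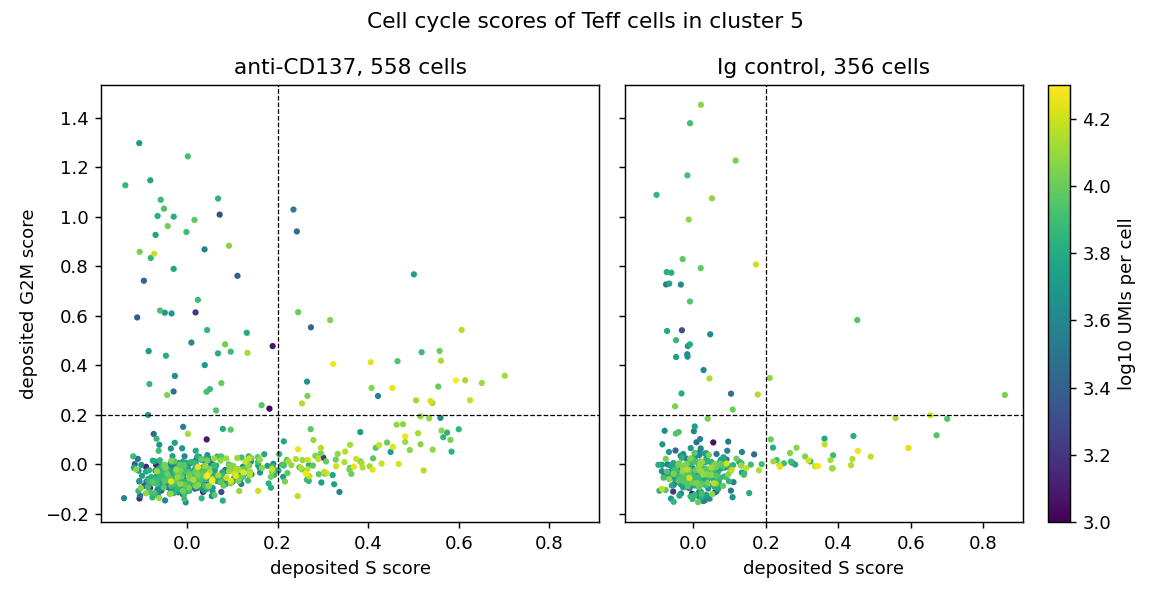
Deposited S score (horizontal axis) and G2M score (vertical axis) of each Teff cell of cluster 5, coloured by log10 of UMIs per cell, for 558 anti-CD137 and 356 Ig control cells. Dashed lines mark a score of 0.2; most cells lie below both lines, and one arm runs along each axis, the S arm holding more of the anti-CD137 cells.

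High S scores were concentrated in the deepest members. At 13000 UMIs and more, the S score was above 0.2 in 61.8% of anti-CD137 members (42 of 68) and 56.0% of Ig control members (14 of 25), with median S scores of 0.27 and 0.24. In clusters 0 and 2 at the same depth, 7.21% of anti-CD137 cells and 10.2% of Ig control cells had such a score, and the median S scores were -0.02 and -0.01. From 5000 up to 6000 UMIs the shares in cluster 5 were 12.1% with anti-CD137 (7 of 58) and 2.08% with the Ig control (1 of 48). Over the 7 bins of UMIs with at least 20 members of both libraries, the shares of members with a high S score averaged 20.2% with anti-CD137 and 12.4% with the Ig control. The difference between treatments was 7.81 points at matched depth, against 10.3 points without matching. Scores cannot be recomputed at 1 depth without values per gene, so the part of depth in them was not tested beyond these bins. The part of free RNA, which differs between droplets, was not tested either.

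Cells with exactly 1 TRA and 1 TRB leave out barcodes where a second chain of either kind was assembled. Among them the S score was above 0.2 in 69 of 318 anti-CD137 members (21.7%) and 26 of 217 Ig control members, against 0.746% and 0.798% in clusters 0 and 2. At 8000 UMIs and more, it was above 0.2 in 50 of 111 such anti-CD137 members and 21 of 70 such Ig control members, against 28 of 168 and 31 of 268 cells of clusters 0 and 2. High scores were thus also present in members with a single assembled receptor. Whether barcodes of several cells remained among these was not tested.

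The deposited phase separated the treatments less than the scores did. S phase was given to 54.1% of anti-CD137 members (302 of 558) and 52.8% of Ig control members (188 of 356), a difference of 1.31 points with an interval of -5.46 to 8.10. G1 was given to 29.4% with anti-CD137 and 27.2% with the Ig control, and G2M to 16.5% and 19.9%. In clusters 0 and 2, S phase was given to 30.0% of anti-CD137 cells and 38.7% of Ig control cells. The phase column followed 1 rule in 100% of cells: G1 where both scores were below 0, and otherwise the phase with the larger score. A cell can therefore be called S phase with a score just above 0. Among S phase members, the S score was under 0.05 in 31.8% with anti-CD137 and 42.6% with the Ig control, against 69.7% and 66.6% in clusters 0 and 2. No share of dividing cells is read from the phase column.

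Pairs of chains were found more often in cluster 5 than in clusters 0 and 2 in both libraries. A TRA and a TRB were assembled in 79.7% of anti-CD137 members and 84.3% of Ig control members, a difference of -4.52 points with an interval of -9.61 to 0.80. Clusters 0 and 2 had pairs in 72.6% of anti-CD137 cells and 67.5% of Ig control cells. Taken alone, cluster 0 had pairs in 67.9% and 59.7%, and cluster 2, nearer to cluster 5, in 77.1% and 77.2%. A TRB without a TRA was found in 6.09% of members with anti-CD137 and 6.46% with the Ig control, against 13.8% and 12.4% in clusters 0 and 2. The leading TRB had a median of 11 UMIs in both libraries, against 9 in clusters 0 and 2. The leading TRA had medians of 5 with anti-CD137 and 6 with the Ig control, against 4. Cluster 1 was near cluster 5, with TRB medians of 12 and 11 and TRA medians of 5 and 4. It had pairs in 77.2% of anti-CD137 cells. With the Ig control it had them in 79.8% of cells below 8000 UMIs and 82.4% at 8000 and more. Members without a chain numbered 70 with anti-CD137, at a median of 6588.5 UMIs, and 26 with the Ig control, at a median of 4524.5 UMIs.

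At high depth cluster 5 kept its chains where clusters 0 and 2 did not, and cluster 1 came close to it. At 8000 UMIs and more, cluster 1 had a chain in 82.6% of anti-CD137 cells and 87.1% of Ig control cells. Cluster 6 had one in 63.9% (46 of 72) and 77.8% (14 of 18). At 8000 UMIs and more, a chain was found in 88.2% of anti-CD137 members and 94.4% of Ig control members, against 65.9% and 76.5% of cells in clusters 0 and 2. At 13000 UMIs and more the shares were 86.8% with anti-CD137 and 92.0% with the Ig control in cluster 5, against 24.3% and 44.9% in clusters 0 and 2. The receptor table came from separate libraries, and whether receptor genes entered the clustering was not stated in the labels or files.

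**Figure D3:**
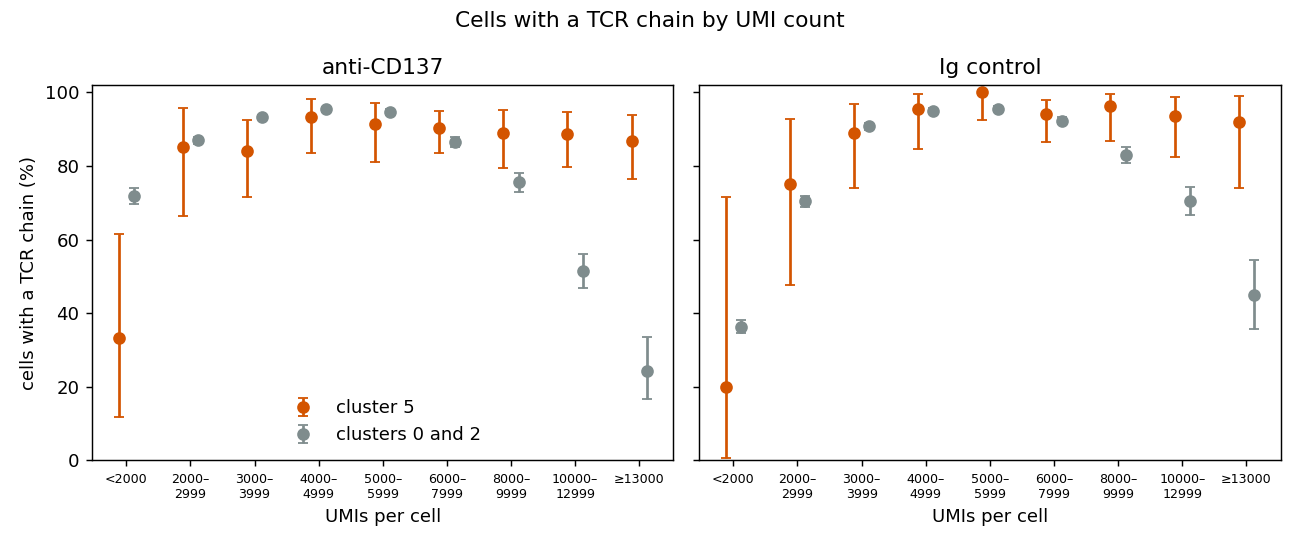
Share of cells with a TCR chain (vertical axis, percent) by UMIs per cell (horizontal axis) in cluster 5 and in clusters 0 and 2, with anti-CD137 on the left and the Ig control on the right. Points are shares and bars are exact 95% intervals; in the deepest bin the shares in cluster 5 are 86.8% and 92.0%, and those in clusters 0 and 2 are 24.3% and 44.9%.

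A second TRB at a barcode also set the deep members apart from the deep cells of clusters 0 and 2, but not from those of cluster 1. A T cell normally keeps 1 productive TRB, since joining stops on the other chromosome once a TRB works, so 2 TRB at 1 barcode are rarer in single cells than 2 TRA. The deposited table listed at most 2 chains of each kind per barcode. Among cells with a TRB, 16.9% of anti-CD137 members (81 of 479) and 13.6% of Ig control members (44 of 323) had 2, a difference of 3.29 points with an interval of -2.05 to 8.39. Clusters 0 and 2 had 15.2% with anti-CD137 and 13.7% with the Ig control, although their cells were shallower. At 8000 UMIs and more the sets parted: 2 TRB were found in 28.8% of anti-CD137 members (55 of 191) and 20.7% of Ig control members (24 of 116), against 74.1% (869 of 1173) and 68.7% (914 of 1331) in clusters 0 and 2. Averaged over bins of UMIs, each weighted by its cluster 5 cells, the shares were 17.1% in cluster 5 and 46.0% in clusters 0 and 2 with anti-CD137, and 14.1% and 35.1% with the Ig control. Below 5000 UMIs, no bin of cluster 5 exceeded 6.67%. Cluster 1 was near cluster 5 at 8000 UMIs and more, with 2 TRB in 23.4% with anti-CD137 and 25.7% with the Ig control. Cluster 6 had 50.0% (23 of 46) and 28.6% (4 of 14) at that depth.

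**Figure D4:**
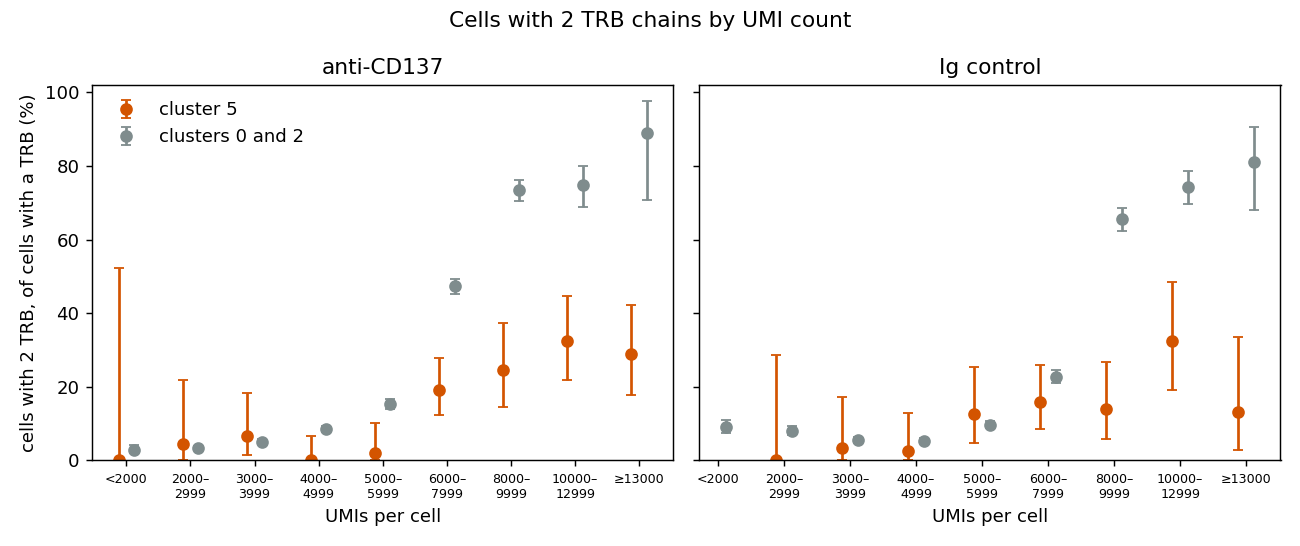
Share of cells with 2 TRB chains among cells with a TRB (vertical axis, percent) by UMIs per cell (horizontal axis) in cluster 5 and in clusters 0 and 2, with anti-CD137 on the left and the Ig control on the right. Points are shares and bars are exact 95% intervals; a bin with fewer than 5 cells with a TRB has no point. From 8000 UMIs the shares of clusters 0 and 2 lie above 60% and those of cluster 5 below 40%.

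A second TRA was seen in 18.3% of anti-CD137 members and 19.2% of Ig control members with a TRA, against 16.0% in clusters 0 and 2 of either library. A barcode with 2 TRA and 2 TRB, as 2 captured T cells would give, made up 8.31% of paired anti-CD137 members (37 of 445) and 6.67% of paired Ig control members (20 of 300). Clusters 0 and 2 had 6.61% with anti-CD137 and 5.53% with the Ig control, inside the intervals of the members, which ran from 5.92 to 11.3% and from 4.12 to 10.1%. How the authors handled doublets was not stated in the labels or files, and the part of doublets in depth and in second chains was not tested.

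Cluster 5 was almost free of expanded clones. Its 445 paired anti-CD137 cells held 442 clonotypes and its 300 paired Ig control cells held 299. A clonotype was counted as expanded when at least 2 cells of the Teff library held it, which applied to 11 anti-CD137 members (2.47%, interval 1.24 to 4.38%) and 5 Ig control members (1.67%, interval 0.543 to 3.85%). The difference was 0.805 points with an interval of -1.70 to 3.02. Clusters 0 and 2 had 1.33% with anti-CD137 and 2.82% with the Ig control, and the intervals of the differences from cluster 5 included 0 in both libraries. Cluster 6 had 53.5% with anti-CD137 and 33.5% with the Ig control, and cluster 1 had 25.2% and 12.6%, all far above the members.

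**Figure D5:**
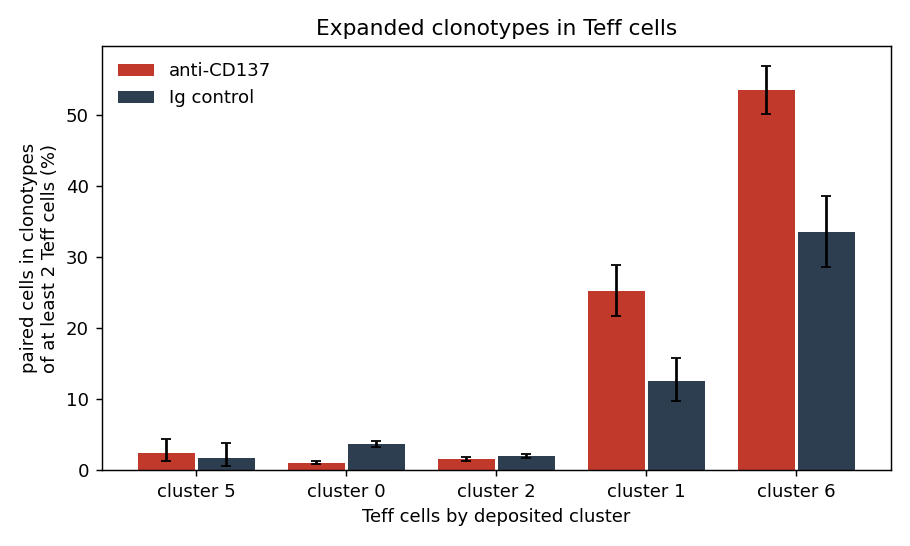
Share of paired Teff cells in clonotypes of at least 2 Teff cells (vertical axis, percent) by deposited cluster (horizontal axis), for anti-CD137 and Ig control. Bars start at 0 and carry exact 95% intervals for counting error; cluster 5 stands at 2.47% with anti-CD137 and 1.67% with the Ig control, near clusters 0 and 2 and far below clusters 1 and 6.

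The other Teff cells of the expanded members' clonotypes lay in different clusters in the 2 libraries, as expanded Teff cells at large did. With anti-CD137 they belonged to 8 clonotypes, of which 3 were the pairs shown above and 5 had 1 cell in cluster 5. The 16 other Teff cells of these 5 lay in cluster 6 (9 cells), cluster 1 (6 cells) and cluster 4 (1 cell), and 0 lay in clusters 0 and 2. The largest was TRBV17 with TRAV3N-3, with 10 Teff cells: 1 in cluster 5, 4 in cluster 1 and 5 in cluster 6. The next was TRBV12-1 with TRAV3N-3, with 4 Teff cells, 3 of them in cluster 6. With the Ig control the expanded members belonged to 4 clonotypes, 1 of them shown above. TRBV14 with TRAV4N-3, TRBV17 with TRAV9-4, and a pair of TRAV14N-2 with a TRB that the table names TRBV12-2+TRBV13-2 had 2 Teff cells each, and their 3 other cells lay in clusters 0 and 2. Of all expanded Teff cells with anti-CD137, 460 lay in cluster 6, 151 in cluster 1 and 237 in clusters 0 and 2. With the Ig control, 285 lay in cluster 0 and 156 in cluster 2. Its cluster 6 held 119 below 8000 UMIs and 2 at 8000 and more, and its cluster 1 held 50 and 10. The counts for the members are small, and the difference in where their other cells lay was not tested.

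Clones shared with the PD1+ sorts were rarer still. A clonotype of the Tpex or Tex libraries of the same treatment was found in 1 of 445 paired anti-CD137 members and in 1 of 300 paired Ig control members. The anti-CD137 one was TRBV17 with TRAV3N-3, which had 46 Tpex cells and 116 Tex cells. The Ig control one, TRBV23 with TRAV13-2, had 1 Tpex cell and is named here because it was the only one. Any clonotype shared with Tpex or Tex was found in 10 of 17845 paired anti-CD137 cells and 8 of 15632 paired Ig control cells of clusters 0 and 2. Among all paired Teff cells outside cluster 5, it was 196 of 19789 and 137 of 17120. The intervals of the differences between cluster 5 and clusters 0 and 2 included 0. In clusters 1 and 6, such sharing reached 8.50% and 15.2% of paired cells with anti-CD137, and 12.3% and 18.6% with the Ig control. Tpex cells of cluster 5 carry the same cluster number, but 0 paired members shared a clonotype with their paired cells in either treatment. Of these paired Tpex cells, 37.5% of 619 with anti-CD137 and 32.7% of 321 with the Ig control were expanded in their own library. Cluster 5 held 1832 Tpex cells with anti-CD137 and 408 with the Ig control, and the clonotypes of those without a pair were not read.

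No pair of chains of the members occurred in both treatments. The Teff, Tpex and Tex libraries of the other treatment were searched together. They held the clonotype of 0 of 445 anti-CD137 members and 0 of 300 Ig control members, which allows shares of up to 0.674% and 1%. The same held for all other Teff cells, with 0 of 19789 and 0 of 17120, so this is not particular to cluster 5. The nucleotide TRB CDR3 alone was found in the libraries of the other treatment for 3.34% of anti-CD137 members with a TRB (16 of 479). For Ig control members it was 2.79% (9 of 323). Clusters 0 and 2 had 3.30% with anti-CD137 and 3.44% with the Ig control. With the TRBV segment and the CDR3 residues in place of bases, the shares were 7.72% and 5.88% in cluster 5, against 7.88% and 8.34% in clusters 0 and 2, again with anti-CD137 before the Ig control. The intervals of cluster 5, 5.50 to 10.5% and 3.58 to 9.03%, held the values of clusters 0 and 2.

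Segment use was broad and close to that of the other Teff cells. TRBV16 led with 8.35% of anti-CD137 members with a TRB and 9.60% of Ig control members, followed by TRBV3 with 8.14% and 7.74%, and TRBV13-1 with 6.89% and 8.36%. Among V segments used by at least 1% of cells in either set, 2 of 65 with anti-CD137 (3.08%) had intervals apart from those of all other Teff cells, and 0 of 64 with the Ig control (0.0%). Between the treatments, 0 of 63 did (0.0%). The 2 were TRAV16, at 4.41% of anti-CD137 members with a TRA (20 of 454, interval 2.71 to 6.72%) against 2.17% of other Teff cells, and TRAV4N-4, at 2.20% (10 of 454, interval 1.06 to 4.01%) against 0.863%. With the Ig control TRAV16 was used by 2.28% of members and 2.46% of other Teff cells, and TRAV4N-4 by 5 of 307 members and 176 of 17544 other Teff cells. TRAV16 lies on chromosome 14 at 53743104 to 53743705 and TRAV4N-4 at 53302036 to 53302559. Both have near-identical copies in the duplicated part of the locus, so the assignment of a chain to 1 copy is uncertain.

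J segments gave 1 of 48 apart with the Ig control (2.08%), 0 of 50 with anti-CD137 (0.0%) and 0 of 46 between treatments (0.0%). The 1 was TRAJ21, on chromosome 14 at 54198790 to 54198846, used by 7.49% of Ig control members (23 of 307, interval 4.81 to 11.0%) and 3.37% of other Teff cells. With anti-CD137 it was used by 3.74% of members and 3.20% of other Teff cells. The TRB CDR3 had 13.9 ± 1.37 residues with anti-CD137 and 13.9 ± 1.38 with the Ig control (mean ± SD over cells of 1 library), against means of 13.9 in clusters 0 and 2 of both libraries.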

How the data were processed

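Splenic Teff cells were described by 4 of the 12 samples, with Tpex and Tex used for shared clonotypes. Library construction used a Chromium 5′ kit from 10x Genomics, per the labels' protocols. Seurat 4.0.0, Cell Ranger 3.0.2 and the mouse build mm10 appear in the submitters' processing notes. Filters, doublet removal and the clustering settings are not given in the sources used here, and no doublet caller was run, since values per gene were not used here. The deposited cell table gives, per the file headers, the count of UMIs and of genes per cell, the percent of mitochondrial and of ribosomal UMIs, the S and G2M score, the phase and the cluster number. The deposited receptor table gives the chain, segments, CDR3 and UMI count of each contig, and was joined by library and barcode.

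Each treatment was 1 library, which leaves shares and their intervals without tests or p-values. Intervals are Clopper-Pearson 95% intervals from scipy 1.17.1. A share of 0 is given with a limit of 3 counts. Values over UMI bins are means of shares in bins with at least 20 cells in both sets, weighted by the cells of both between treatments and by the cluster 5 cells where cluster 5 is set against clusters 0 and 2. V and J segments were compared where used by at least 1% of cells with the chain in either set and named where their intervals lay apart, at most 5 in each direction. Clonotypes were named for the 5 with most paired members in each library. For the Ig control 4 are described, since the fifth was a single cell. CDR3s are shown for those with at least 2 members. TRBV23 with TRAV13-2, J segments, the score limit of 0.2 the depth limit of 8000 UMIs and the UMI bins set against clusters 0 and 2 were chosen after values were seen. The members and lists were chosen with earlier results of these data known. The naming of segments by intervals that lay apart, and the drawing down of expanded clonotypes, were tested on simulated data. The UMI bins, the Newcombe intervals and the drawing down of the PD1+ libraries were not. The simulated segments were TRBV segments of the Ig control library with planted changes of 1 size. TRAV and J segments, and other sizes of change, were not simulated. Scripts used Python 3.11.15, numpy 2.4.6, pandas 2.3.3 and matplotlib 3.10.9.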

Additional observations from a re-analysis of the deposited data

Results flagged for a closer look

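In 3 measures cluster 5 stood on opposite sides of clusters 0 and 2 in the anti-CD137 and the Ig control library. The difference between the libraries in these contrasts was not tested, as each treatment was 1 library. For the share of cells with a chain, cluster 5 minus clusters 0 and 2 was -1.25 points with anti-CD137 (interval -4.31 to 1.41) and 11.2 points with the Ig control (interval 7.96 to 13.7). For the share of expanded cells among paired cells it was 1.14 points with anti-CD137 (interval -0.101 to 3.06) and -1.15 points with the Ig control (interval -2.31 to 1.04). For 2 TRB among cells with a TRB it was 1.75 points with anti-CD137 (interval -1.53 to 5.45) and -0.0303 points with the Ig control (interval -3.61 to 4.23). Only the first had an interval apart from 0, in the Ig control library. Taken alone, cluster 0 had a chain in 76.1% of Ig control cells and cluster 2 in 88.4%. With anti-CD137 these were 88.6% and 88.8%. For 2 TRB, cluster 0 had 8.78% with anti-CD137 and 8.62% with the Ig control. Cluster 2 had 21.1% and 19.1%, so cluster 5 lay between them. At matched depth, over bins of UMIs weighted by their cluster 5 cells, the chain contrast had 1 sign in both libraries: 89.0% in cluster 5 and 74.6% in clusters 0 and 2 with anti-CD137, and 94.6% and 85.0% with the Ig control.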

How the results depend on the processing

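Of 40 alternative settings over 9 results, 38 moved the value by less than its counting interval or kept the count of segments, and 2 moved it further. Among the 38, the sign of 2 small differences changed: S phase was at -5.23 points under 6000 UMIs and -1.91 in cells with 1 TRA and 1 TRB, and sharing with Tpex or Tex, reported at -0.109, was at 0.216 by TRB alone and 0.0763 after drawing down the PD1+ libraries. Counting clones by TRB alone put expanded cells at 5.22% of members with anti-CD137 and 8.67% with the Ig control, a difference of -3.45 points (interval -7.49 to 0.255). Replacing the deposited S phase by an S score above 0.2, an alternative added after seeing the data, gave a difference of 10.3 points, against 1.31 points for the phase. The cause of either was not tested. The share of Teff cells in cluster 5 differed by 0.471 to 0.636 points over its alternatives. Paired chains, reported at -4.52 points with an interval that includes 0, were at -8.32 points (interval -14.3 to -1.85) in cells above the median UMIs. The 2 V segments with anti-CD137 were the same under all 4 settings tried for them. No paired analysis was possible because each treatment was 1 library. For the same reason no replicate could be left out. With 558 and 356 cells, the S phase difference is known only to within -5.46 to 8.10 points, and expanded shares rest on 11 and 5 cells.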

Other observations

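High depth went with a high S score in cluster 5 more often than in clusters 0 and 2. At 8000 UMIs and more, the S score was above 0.2 in 38.9% of anti-CD137 members and 21.8% of Ig control members, against 3.87% and 3.57% of cells in clusters 0 and 2. At the same depth, a cell with a TRB had 1 TRB and at most 1 TRA in 63.4% of anti-CD137 members and 62.1% of Ig control members, against 15.3% and 21.7% in clusters 0 and 2. Below 8000 UMIs these shares were 80.2% and 81.2% in cluster 5, against 80.1% and 81.5% in clusters 0 and 2. Cluster 1 was near cluster 5 at 8000 UMIs and more, with 66.4% for anti-CD137 and 64.9% for the Ig control. Cluster 6 had 32.6% and 42.9% at that depth.

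Cluster 1 also held many cells with high scores, and more of them than in cluster 5 had both scores high. Both scores were above 0.2 in 24.5% of its anti-CD137 cells and 13.4% of its Ig control cells, against 5.02% and 0.843% in cluster 5. At least 1 score was above 0.2 in 40.5% of its anti-CD137 cells and 20.5% of its Ig control cells, against 29.2% and 19.1% in cluster 5. Below 8000 UMIs, the S score was above 0.2 in 21.1% of anti-CD137 and 7.83% of Ig control cells of cluster 1. At 8000 UMIs and more it was 87.1% and 75.3%, so a higher share with anti-CD137 was not particular to cluster 5. Among anti-CD137 Tpex cells of cluster 5, 22.4% had at least 1 score above 0.2.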
